A study of Mus musculus with 6 samples.

Results

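E2F transcription factors and the pocket proteins that bind them were followed in mouse embryonic fibroblasts that differed in Ezh2 and in the Ink4a/Arf locus. The genes were chosen by symbol: the activating factors E2f1, E2f2 and E2f3, the repressive factors E2f4, E2f5 and E2f6, the atypical factors E2f7 and E2f8, and the pocket protein genes Rb1 and Rbl1. All 10 symbols were found among the 20723 on the arrays, with 12 of the 23346 probe sets. E2f3 and Rbl1 had 2 probe sets each, and the one with the higher mean level stands for the gene unless stated otherwise.

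The cells were fibroblasts of the Ola129 strain, grown with serum and leukemia inhibitory factor, in 4 groups. Those with the label Ink4a/Arf-/- were Ezh2 -/- on 2 arrays and Ezh2 fx/fx on 2 arrays, and those with the label Ink4a/Arf+/+ were Ezh2 -/- on 1 array and Ezh2 fx/fx on 1 array. The text describing the series speaks instead of transient transfection with esiRNA against Ezh2, whereas the titles, which also head the data columns, give genotypes, and the titles were used. How Ezh2 was removed, the age of the embryos and whether replicates came from separate cultures were not given in the sources used here. The p-values therefore measure only the spread between these samples.

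E2F factors bind promoters of cell cycle genes, most of them as dimers with a DP protein. The activating factors drive genes of S phase, E2f4 and E2f5 repress them together with pocket proteins, and E2f6 represses without pocket proteins and is known as a partner of Polycomb complexes. The atypical factors E2f7 and E2f8 bind without a DP partner, repress E2F target genes and are themselves targets of E2F. Rb1 encodes the retinoblastoma protein, and Rbl1 a relative that is itself an E2F target. The Ink4a product inhibits the cyclin D kinases that inactivate pocket proteins, and Ezh2, the Polycomb methyltransferase, is a known target of the same pathway.

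Promoter sequences are shown first, since E2F factors bind the promoters of some of their own genes. They are those of E2f7, E2f8 and Rbl1, which had the most negative differences in Ink4a/Arf+/+ cells, and of E2f3, with a smaller one there. In Ink4a/Arf-/- cells the difference of E2f7, -0.089, was smaller than that of E2f3, -0.11. RefSeq (GRCm38.p6) gave 9 windows of 300 bases, 250 upstream and 50 downstream of an annotated start, for 7 of the 10 genes; E2f4, E2f5 and Rb1 were not matched. Capitals mark 3 motifs searched on both strands: E2F words (the word TTCCCGC, the word TTCGCGC, the word TTGCCGC and the word TTGGCGC), the cell cycle homology region word TTTGAA, and CCAAT. In E2f8 an E2F word and a CCAAT word overlap. The E2f8 window belongs to a start 477 bases inside the outermost annotated start and lies wholly inside the gene, while the other 3 windows span the outermost start.
E2f7, chr10:110745189-110745488, plus strand: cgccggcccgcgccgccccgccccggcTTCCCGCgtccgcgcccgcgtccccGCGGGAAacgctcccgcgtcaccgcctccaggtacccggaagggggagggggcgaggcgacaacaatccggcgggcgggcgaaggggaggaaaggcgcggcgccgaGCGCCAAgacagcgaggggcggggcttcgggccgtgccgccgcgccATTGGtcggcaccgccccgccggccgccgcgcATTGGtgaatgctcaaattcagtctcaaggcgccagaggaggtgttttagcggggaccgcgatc
E2f8, chr7:48881547-48881846, minus strand: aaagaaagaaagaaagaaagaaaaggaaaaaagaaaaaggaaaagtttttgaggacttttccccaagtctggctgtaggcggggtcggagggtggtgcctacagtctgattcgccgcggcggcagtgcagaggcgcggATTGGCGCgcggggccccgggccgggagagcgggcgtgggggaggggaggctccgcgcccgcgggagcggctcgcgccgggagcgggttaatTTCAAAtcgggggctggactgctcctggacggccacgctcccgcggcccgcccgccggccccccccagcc
Rbl1, chr2:157204485-157204784, minus strand: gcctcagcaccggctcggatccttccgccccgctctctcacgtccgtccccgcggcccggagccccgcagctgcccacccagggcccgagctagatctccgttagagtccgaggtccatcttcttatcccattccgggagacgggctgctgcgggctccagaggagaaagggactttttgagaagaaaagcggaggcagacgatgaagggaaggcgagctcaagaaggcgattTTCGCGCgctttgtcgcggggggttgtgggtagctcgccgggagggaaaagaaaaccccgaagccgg
E2f3, chr13:29986014-29986313, minus strand: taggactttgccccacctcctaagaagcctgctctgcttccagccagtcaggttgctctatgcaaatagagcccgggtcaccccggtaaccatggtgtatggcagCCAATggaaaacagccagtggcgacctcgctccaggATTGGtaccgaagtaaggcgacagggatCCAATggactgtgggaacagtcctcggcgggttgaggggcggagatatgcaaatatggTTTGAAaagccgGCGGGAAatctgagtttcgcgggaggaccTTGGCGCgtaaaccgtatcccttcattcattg

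The E2f7 window held 3 E2F words, the E2f3 window above 2, and the windows of E2f8, Rbl1 and the first start of E2f2 1 each. None was found in the window of E2f6 or in the other windows of E2f2 and E2f3. Nor was one in the E2f1 window, but that window lies wholly inside the gene, at a start 466 bases past the outermost one, and the E2f1 promoter at the outermost start was not analysed here. Of the 9 windows, 4 lie wholly inside their gene. In total 5 of the 9 member windows held an E2F word, beside 9.57% of all 32851 windows and 18 of the 25 windows of classical E2F target genes. TTTGAA was in 3 member windows, against 17.9% of all windows, and CCAAT was in 5, against 37.4%. These matches describe the letters only.

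The arrays were checked before the members. The median level of an array ran from 8.25 to 8.32 for Ink4a/Arf-/-, and was 7.51 and 7.498 for Ink4a/Arf+/+, so levels were compared only within a table. The Ezh2 probe set gave 10.62 and 10.51 in Ezh2 -/- cells against 10.92 and 10.91 in fx/fx cells of the Ink4a/Arf-/- background, and 10.12 against 10.48 in Ink4a/Arf+/+ cells. Cdkn2a, the gene of the Ink4a/Arf locus, gave 8.11 and 8.20 in Ezh2 -/- cells against 8.29 and 8.18 in fx/fx cells of the Ink4a/Arf-/- background, and 8.62 against 7.91 in Ink4a/Arf+/+ cells. Where the probes of either gene lie relative to the deleted part was not given in the sources used here. These levels therefore check no label. The 9 fibroblast markers had a median rank at the 97.5th percentile of an array. Those of blood, endothelium, epithelium, pluripotent, muscle and neural cells had medians between the 20.6th and 42.6th. Single markers of these cells ranked higher, with highest ranks from the 38.4th percentile for endothelium to the 76.6th for muscle. The lowest fibroblast rank was at the 59.3rd. On the first principal component of the Ink4a/Arf-/- arrays, which held 46.2% of the variance, fx/fx replicate 1 stood apart with a loading of 0.84, against -0.42 to -0.098 for the others.

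In Ink4a/Arf-/- cells the differences between Ezh2 -/- and fx/fx were small for all 10 genes, between -0.22 (E2f8) and 0.033 (Rb1) on the log2 scale, and none passed the limma test over all probe sets. In Ink4a/Arf+/+ cells the atypical factors and Rbl1 were lower on the Ezh2 -/- array, by log2 differences between -0.71 and -0.57, while the activating and repressive factors differed by -0.13 to 0.20 and Rb1 by 0.25. In bulk RNA, fewer cells expressing a gene and less RNA per cell cannot be told apart.

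Some fibroblast markers differed in the same Ink4a/Arf+/+ pair. Of the 9 markers, 8 were lower on the Ezh2 -/- array, beside 48.2% of all probe sets, with a median of -0.13. These 8 ranged from -1.41 for Pdgfra to -0.0090 for Fn1. In Ink4a/Arf-/- cells 3 of the 9 were lower (Pdgfra, Col3a1 and Vim), beside 60.9% of all probe sets, and the median was 0.012. Pdgfra, a growth factor receptor of fibroblasts, differed by -1.41 or 2.65-fold in Ink4a/Arf+/+ cells and by -0.17 in Ink4a/Arf-/- cells. S100a4 differed by -0.41 and 0.048, and Thy1 by -0.38 and 0.075, while Pdgfrb was higher in both, by 0.44 and 0.18. The difference of Pdgfra between backgrounds, Ink4a/Arf+/+ minus Ink4a/Arf-/-, was -1.24 (limma, adjusted p = 0.0719). The part of these markers in the values of E2f7, E2f8 and Rbl1 was not tested.

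**Figure D1:**
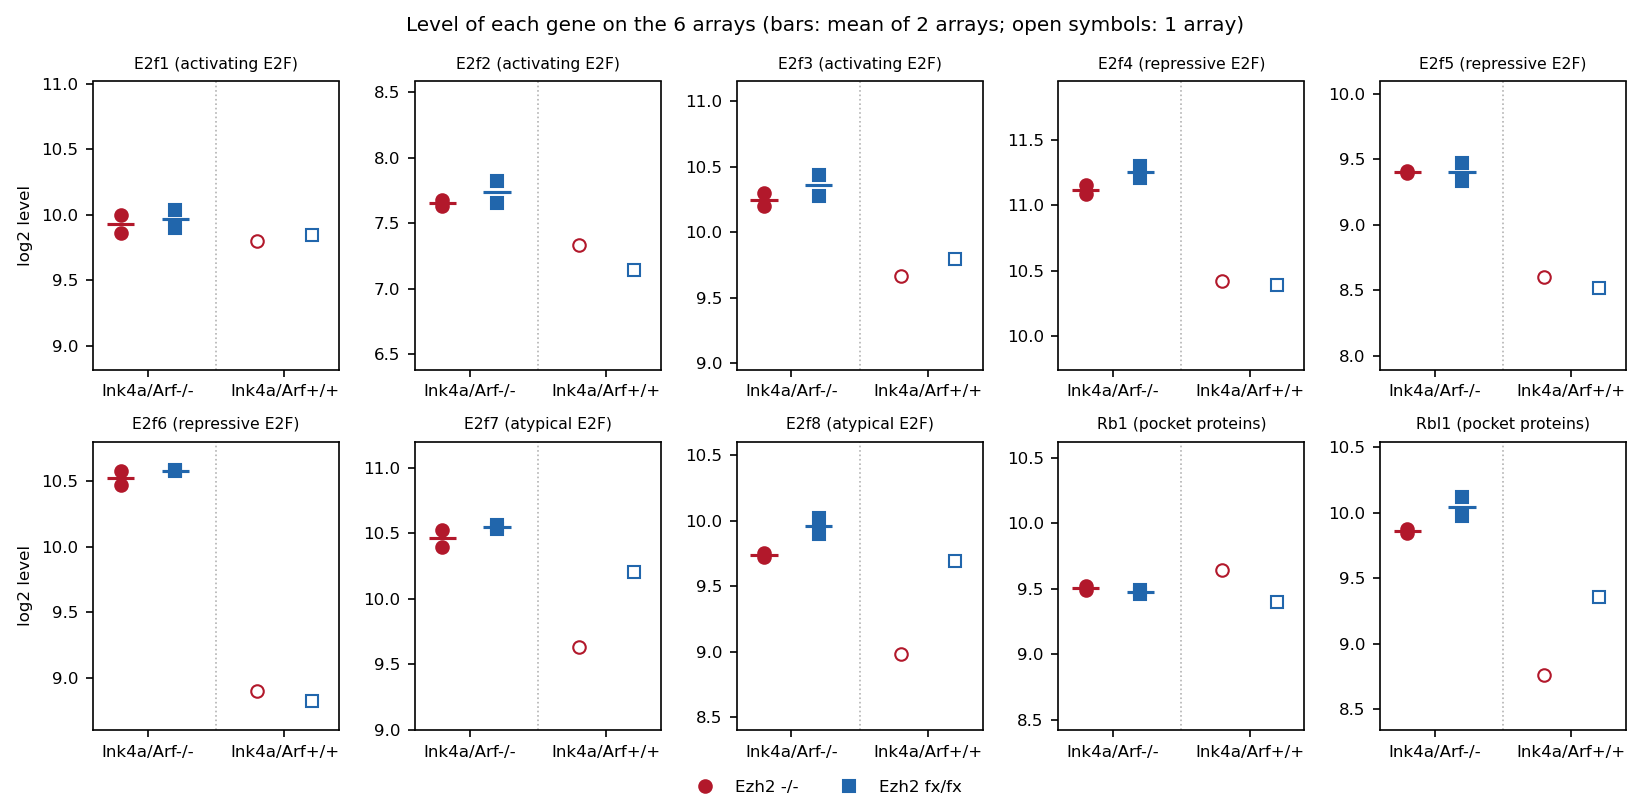
Log2 level (vertical axis, each panel spanning the same number of log2 units) of each gene on the 6 arrays, with Ezh2 -/- as red circles and fx/fx as blue squares; filled symbols are Ink4a/Arf-/- arrays with bars at the mean of 2, open symbols are the single Ink4a/Arf+/+ arrays. Levels on either side of the dotted line come from tables with different medians and are not comparable; E2f7, E2f8 and Rbl1 show the widest gaps between the open symbols.

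Among the activating factors E2f1, a driver of S phase entry, read 10.002 and 9.86 in Ezh2 -/- cells against 10.04 and 9.90 in fx/fx cells of the Ink4a/Arf-/- background. The single Ink4a/Arf+/+ arrays read 9.80 in Ezh2 -/- against 9.85 in fx/fx cells. The groups overlapped, and the replicates of each genotype lay 0.14 apart, more than the log2 difference of -0.037 ± 0.092 (SE, n = 2 per genotype; limma, Benjamini-Hochberg adjusted p = 0.973). The 95% interval of that difference ran from -0.26 to 0.19. It does not show that the levels were equal, but a difference of 1.5-fold lay outside it. Without Ezh2 -/- replicate 2 or fx/fx replicate 1 the sign turned, with 0.034 and 0.033.

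E2f2, another activating factor, was the dimmest member, ranking at the 40.9th to 48.0th percentile of an array. Epithelium markers had a median at the 42.6th, and whether E2f2 lay above background was not tested. It read 7.68 and 7.63 in Ezh2 -/- cells against 7.83 and 7.66 in fx/fx cells of the Ink4a/Arf-/- background, with overlap between the genotypes. It was the other way round on the single Ink4a/Arf+/+ arrays, with 7.34 in Ezh2 -/- against 7.14 in fx/fx cells. The differences were -0.086 ± 0.087 (SE, n = 2 per genotype; limma, adjusted p = 0.896) and 0.20.

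E2f3 gives rise to long and short isoforms. It read 10.30 and 10.20 in Ezh2 -/- cells against 10.28 and 10.44 in fx/fx cells of the Ink4a/Arf-/- background. In Ink4a/Arf+/+ cells it read 9.67 in Ezh2 -/- against 9.80 in fx/fx cells. Its groups overlapped, and the difference was -0.11 ± 0.09 (SE, n = 2 per genotype; limma, adjusted p = 0.864) in Ink4a/Arf-/- and -0.13 in Ink4a/Arf+/+ cells. Its other probe set went the opposite way, with 8.98 and 8.80 in Ezh2 -/- cells against 8.86 and 8.91 in fx/fx cells of the Ink4a/Arf-/- background, and 8.56 against 8.39 in Ink4a/Arf+/+ cells. The differences of that probe set were 0.0074 and 0.17, so the 2 probe sets of E2f3 disagree in sign. Which isoforms they read was not given in the sources used here.

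Of the repressive factors E2f4, the main E2F of resting cells, read 11.08 and 11.15 in Ezh2 -/- cells against 11.30 and 11.21 in fx/fx cells of the Ink4a/Arf-/- background. Both Ezh2 -/- arrays lay below both fx/fx arrays, and the difference was -0.14 ± 0.08 (SE, n = 2 per genotype; limma, adjusted p = 0.780). The Ink4a/Arf+/+ reading was 10.42 in Ezh2 -/- against 10.39 in fx/fx cells, a difference of 0.030.

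E2f5, which acts with pocket proteins as E2f4 does, read 9.41 and 9.40 in Ezh2 -/- cells against 9.33 and 9.47 in fx/fx cells of the Ink4a/Arf-/- background, the fx/fx values enclosing the others. Its difference was 0.00078 ± 0.081 (SE, n = 2 per genotype; limma, adjusted p = 0.9995), with a 95% interval from -0.20 to 0.20. On the Ink4a/Arf+/+ arrays it read 8.60 in Ezh2 -/- against 8.52 in fx/fx cells.

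E2f6, the Polycomb-associated factor, read 10.58 and 10.47 in Ezh2 -/- cells against 10.58 and 10.58 in fx/fx cells of the Ink4a/Arf-/- background. The Ezh2 -/- arrays were nominally lower than both fx/fx arrays, though replicate 1 all but equalled them. The difference was -0.058 ± 0.077 (SE, n = 2 per genotype; limma, adjusted p = 0.935), and in Ink4a/Arf+/+ cells, with 8.90 in Ezh2 -/- against 8.82 in fx/fx cells, it was 0.083.

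The atypical factors had the most negative class median in both backgrounds. E2f7 read 10.52 and 10.39 in Ezh2 -/- cells against 10.56 and 10.53 in fx/fx cells of the Ink4a/Arf-/- background, a difference of -0.089 ± 0.081 (SE, n = 2 per genotype; limma, adjusted p = 0.880). The Ezh2 -/- arrays lay below the fx/fx arrays, but their own gap of 0.13 exceeded that difference. With Ink4a/Arf+/+, E2f7 read 9.63 in Ezh2 -/- against 10.21 in fx/fx cells, a difference of -0.57 or 1.49-fold, just short of the 1.5-fold used for counting.

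E2f8, the partner of E2f7 in repressing S phase genes, read 9.72 and 9.76 in Ezh2 -/- cells against 9.90 and 10.02 in fx/fx cells of the Ink4a/Arf-/- background. All Ezh2 -/- values lay below all fx/fx values, and the replicate gaps of 0.036 and 0.12 were smaller than the difference of -0.22 ± 0.08 (SE, n = 2 per genotype). Adjusted over all probe sets it missed the threshold of 0.05 (limma, adjusted p = 0.692), and its unadjusted limma p was 0.0328. E2f8 was the 1 member below an unadjusted p of 0.05, where 4.12% of all probe sets were lower and 2.80% higher, 6.93% in either direction. Leaving out 1 array took this limma p to 0.175 (Ezh2 -/- replicate 1), 0.118 (Ezh2 -/- replicate 2), 0.0145 (fx/fx replicate 1) and 0.0896 (fx/fx replicate 2). With Ink4a/Arf+/+, E2f8 read 8.99 in Ezh2 -/- against 9.69 in fx/fx cells, a difference of -0.71 or 1.63-fold.

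The pocket protein genes had opposite signs in Ink4a/Arf+/+ cells. In Ink4a/Arf-/- cells this held only with the brighter probe set of Rbl1, and the value of Rb1 was smaller than its SE. Rb1 read 9.52 and 9.49 in Ezh2 -/- cells against 9.49 and 9.46 in fx/fx cells of the Ink4a/Arf-/- background, a difference of 0.033 ± 0.072 (SE, n = 2 per genotype; limma, adjusted p = 0.969). Its Ezh2 -/- values were nominally the higher ones, but the pairs touched at 2 decimals. With Ink4a/Arf+/+, Rb1 read 9.65 in Ezh2 -/- against 9.40 in fx/fx cells, and its difference of 0.25 was the most positive of the 10.

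Rbl1 read 9.87 and 9.85 in Ezh2 -/- cells against 9.97 and 10.12 in fx/fx cells of the Ink4a/Arf-/- background, with no overlap. The difference was -0.18 ± 0.08 (SE, n = 2 per genotype; limma, unadjusted p = 0.0699, adjusted p = 0.749). For the Ink4a/Arf+/+ pair it read 8.76 in Ezh2 -/- against 9.35 in fx/fx cells, a difference of -0.59 or 1.51-fold. The dimmer probe set of Rbl1 gave 7.25 and 7.32 in Ezh2 -/- cells against 7.21 and 7.20 in fx/fx cells, and 6.03 against 6.20 in Ink4a/Arf+/+ cells. Its differences of 0.083 and -0.17 disagree in sign with the brighter one in Ink4a/Arf-/- cells and are smaller in Ink4a/Arf+/+ cells, so the size for Rbl1 depends on the probe set.

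**Figure D2:**
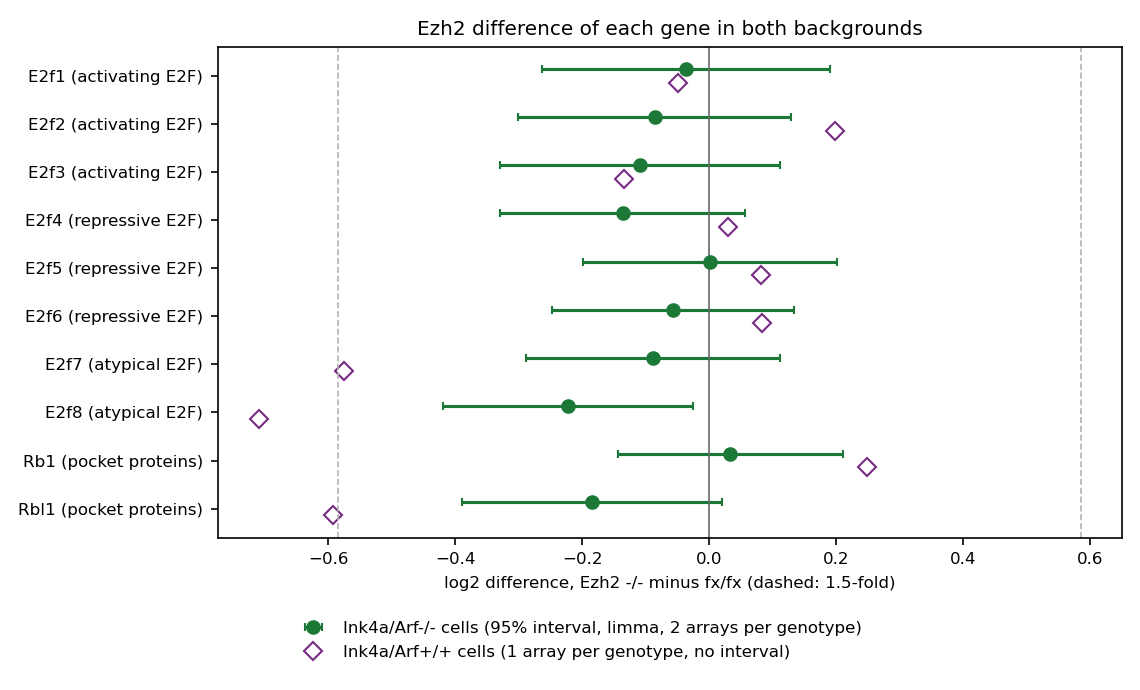
Log2 difference, Ezh2 -/- minus fx/fx (horizontal axis), of each gene; green points are Ink4a/Arf-/- cells with the 95% limma interval, purple diamonds are Ink4a/Arf+/+ cells with 1 array per genotype and no interval, and dashed lines mark 1.5-fold. E2f7, E2f8 and Rbl1 have diamonds between -0.71 and -0.57, left of their green intervals, while 9 of the 10 green intervals include 0.

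Counted together, 8 of 10 members had a negative difference in Ink4a/Arf-/- cells, where 60.9% of all probe sets did. The Ezh2 -/- and fx/fx arrays did not overlap for 5 members that were lower, beside 23.6% of all probe sets, and for 1 that was higher, Rb1, beside 13.0%, and 36.6% of all probe sets did not overlap in either direction. The 5 were E2f4, E2f6, E2f7, E2f8 and Rbl1. Members called by limma over all probe sets numbered 0, and so did probe sets called (0%). The median of the members was -0.087 and that of all probe sets -0.027. By class the medians were -0.086 for the activating, -0.058 for the repressive and -0.16 for the atypical factors, and -0.075 for the pocket proteins. The activating median came to -0.0027 without fx/fx replicate 1. The repressive median came to -0.10 without Ezh2 -/- replicate 1 and to -0.0046 without Ezh2 -/- replicate 2, and that of the pocket proteins to -0.046 without fx/fx replicate 2.

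In Ink4a/Arf+/+ cells, where no difference has a replicate check, 5 of 10 members were lower on the Ezh2 -/- array, beside 48.2% of all probe sets. E2f8 and Rbl1 were at least 1.5-fold lower, a size that 1.83% of all probe sets reached, and 0 members were at least 1.5-fold higher, where 2.64% of probe sets were, or 4.47% in either direction. No member reached 2-fold, beside 1.11% of all probe sets. With quantile normalization within the table Rbl1 came to -0.58 and only E2f8 stayed past 1.5-fold. The class medians were -0.048 for the activating, 0.081 for the repressive and -0.64 for the atypical factors, and -0.17 for the pocket proteins, beside 0.00072 over all probe sets. With the median over the probe sets of a gene, E2f3 and with it the activating median turned to 0.019, and the pocket protein median came to -0.067.

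**Figure D3:**
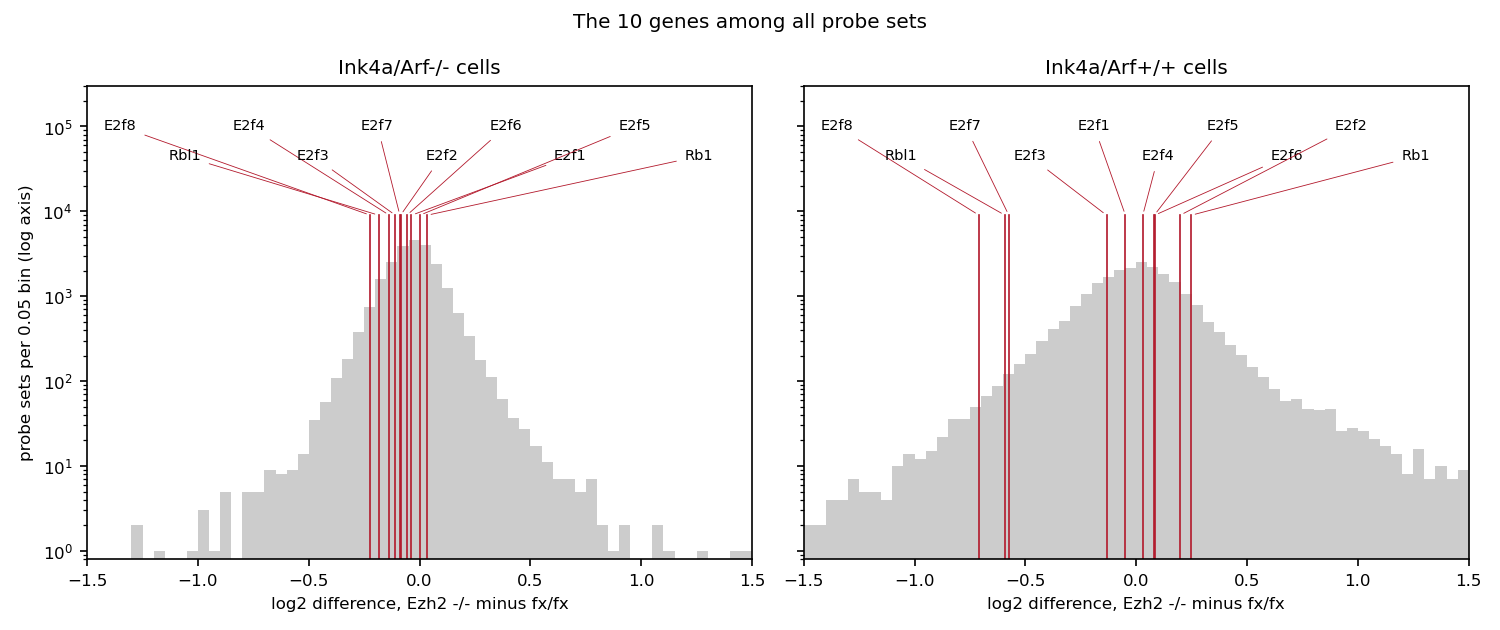
Number of probe sets (vertical axis, logarithmic) by log2 difference, Ezh2 -/- minus fx/fx (horizontal axis, shown from -1.5 to 1.5), in grey, with the 10 genes as red lines; left Ink4a/Arf-/- cells, right Ink4a/Arf+/+ cells. In Ink4a/Arf+/+ cells E2f8, Rbl1 and E2f7 lie in the lower tail, with 1.002%, 1.76% and 1.91% of probe sets below them, and the other 7 genes lie in the bulk.

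Ranked among all probe sets, E2f8 had 5.04% of probe sets with a lower difference in Ink4a/Arf-/- cells and 1.002% in Ink4a/Arf+/+ cells. For Rbl1 these shares were 8.34% and 1.76%, and for E2f7 27.7% and 1.91%. E2f1, in contrast, lay near the middle in both backgrounds, with 46.1% and 39.4% of probe sets below it.

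The test of the difference between backgrounds set the Ezh2 difference of Ink4a/Arf+/+ cells minus that of Ink4a/Arf-/- cells in the same limma fit, and assumes that the single arrays vary like the replicates. No member was called, while 0.407% of all probe sets were. The atypical factors and Rbl1 had the most negative values. E2f8 came to -0.49 ± 0.14 (SE; limma, adjusted p = 0.284, unadjusted p = 0.0132), E2f7 to -0.49 ± 0.14 (SE; limma, adjusted p = 0.294, unadjusted p = 0.0143) and Rbl1 to -0.41 ± 0.14 (SE; limma, adjusted p = 0.384, unadjusted p = 0.0309). These 3 of 10 members were more negative in Ink4a/Arf+/+ cells at an unadjusted p below 0.05, beside 4.66% of all probe sets in that direction, and 0 members were more positive, beside 6.50%, with 11.2% in either direction. Without either Ezh2 -/- replicate of the Ink4a/Arf-/- cells 1 of the 3 remained below that level. The one remaining was E2f8 without replicate 1 and E2f7 without replicate 2.

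For the other 7 members the difference between backgrounds lay between -0.025 for E2f3 and 0.28 for E2f2, and every 95% interval included 0. That of E2f1 ran from -0.40 to 0.38, so a 1.5-fold difference between backgrounds lay outside it. For E2f2 it ran from -0.088 to 0.66 and for Rb1 from -0.091 to 0.52, and the E2f2 interval left a 1.5-fold higher value inside.

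E2f8 was the member with the largest difference averaged over the backgrounds, and genes with a similar profile were ranked by Pearson's correlation over the 6 arrays, each table centred on its own mean. Among 1222 genes with an SD of at least 0.2, the 5 most alike were Anln, an actin-binding protein of the cleavage furrow (r = 0.999), the nuclear envelope gene Syne2 (0.997), the mitotic kinesin Kif11 (0.997), Vash2 (0.996) and the kinetochore gene Casc5 (0.995). The Ink4a/Arf+/+ pair carries most of such a profile, and 93 genes had an r of at least 0.95, so these values describe the 6 arrays only. On the same measure Rbl1 had an r of 0.99 with E2f8 and E2f7 one of 0.93, while Rb1 had -0.97 and E2f1 0.17.

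Pathway genes around the members came from lists chosen by function. Of the DP partners, Tfdp2 differed by -0.32 in Ink4a/Arf-/- cells, with 9.94 and 9.86 in Ezh2 -/- cells against 10.18 and 10.24 in fx/fx cells (limma, adjusted p = 0.592), and by -0.042 in Ink4a/Arf+/+ cells. Tfdp1 differed by -0.024 and -0.21. Rbl2, the pocket protein gene outside the 10, differed by 0.054 and -0.095. No gene of any pathway list passed the limma test over all probe sets.

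The MuvB core and the factors that join it on late cell cycle promoters were lower in 4 of 6 cases in both backgrounds, beside 60.9% and 48.2% of all probe sets, with medians of -0.14 in Ink4a/Arf-/- and -0.36 in Ink4a/Arf+/+ cells. Mybl2, the B-Myb factor, differed by -0.24 and -0.48, Foxm1, which drives mitotic genes, by -0.095 and -0.50, Lin9 by -0.29 and -0.42 and Lin54 by -0.18 and -0.30. The Ezh2 -/- and fx/fx arrays of these 4 did not overlap in Ink4a/Arf-/- cells, beside 23.6% of all probe sets in that direction. Lin37 and Lin52 had positive values in both.

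Upstream of the pocket proteins, the 8 G1 cyclins and kinases had medians of 0.047 in Ink4a/Arf-/- and 0.091 in Ink4a/Arf+/+ cells. Ccnd2 differed by 0.12 in Ink4a/Arf-/- and 0.44 in Ink4a/Arf+/+ cells, Ccnd3 by 0.11 and 0.62, and Cdk6 by 0.14 and 0.46. Ccne2, a cyclin E gene and E2F target, differed by -0.23 and -0.36, and its relative Ccne1 by 0.060 and -0.0099. Cdk2 differed by -0.16 and -0.39, and Cdk4 by -0.034 and -0.087. In Ink4a/Arf-/- cells 3 of the 8 were lower (Ccne2, Cdk2 and Cdk4), beside 60.9% of all probe sets. With Ccne1 added, 4 of the 8 were lower in Ink4a/Arf+/+ cells, beside 48.2%. Of the 8 genes 1, Ccnd3, was at least 1.5-fold higher in Ink4a/Arf+/+ cells, beside 2.64% of all probe sets, and 0 were 1.5-fold lower, beside 1.83%.

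Among 7 CDK inhibitors, Cdkn1a, induced by p53, differed by 0.45 in Ink4a/Arf-/- and 0.75 in Ink4a/Arf+/+ cells, and Cdkn1b by -0.18 and -0.36. The Ink4 genes Cdkn2a and Cdkn2b differed by -0.078 and 0.14 in Ink4a/Arf-/- cells, and by 0.71 and 0.62 in Ink4a/Arf+/+ cells. Cdkn1a, Cdkn2a and Cdkn2b were the 3 of 7 at least 1.5-fold higher in Ink4a/Arf+/+ cells, beside 2.64% of all probe sets, and their part in the values of the E2F genes was not tested.

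The list of classical E2F targets, which act mainly in S phase, held 28 genes, among them Ezh2 itself, which is left out here because the design removed it. The other 27 were all lower in Ezh2 -/- cells in both backgrounds, where 60.9% of all probe sets were lower in Ink4a/Arf-/- and 48.2% in Ink4a/Arf+/+ cells. Their medians were -0.19 in Ink4a/Arf-/- and -0.47 in Ink4a/Arf+/+ cells, beside -0.027 and 0.00072 over all probe sets. In Ink4a/Arf-/- cells 26 of 27 did not overlap between genotypes, all but Cdc6, beside 23.6% of all probe sets in that direction. An unadjusted limma p below 0.05 was found for 10, beside 4.12%, and 0 passed over all probe sets. Of the 27, 7 were at least 1.5-fold lower in Ink4a/Arf+/+ cells, beside 1.83%. Those with the largest averaged difference were the origin gene Orc1 (-0.35 and -0.64), the checkpoint kinase Chek1 (-0.21 and -0.80), the methylation factor Uhrf1 (-0.20 and -0.76) and thymidine kinase Tk1 (-0.29 and -0.62). E2f7, E2f8 and Rbl1 had differences within the range of these targets in both backgrounds, which was -0.37 to -0.055 in Ink4a/Arf-/- and -0.80 to -0.17 in Ink4a/Arf+/+ cells. E2f1, with -0.037 and -0.048, lay outside it in both.

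**Figure D4:**
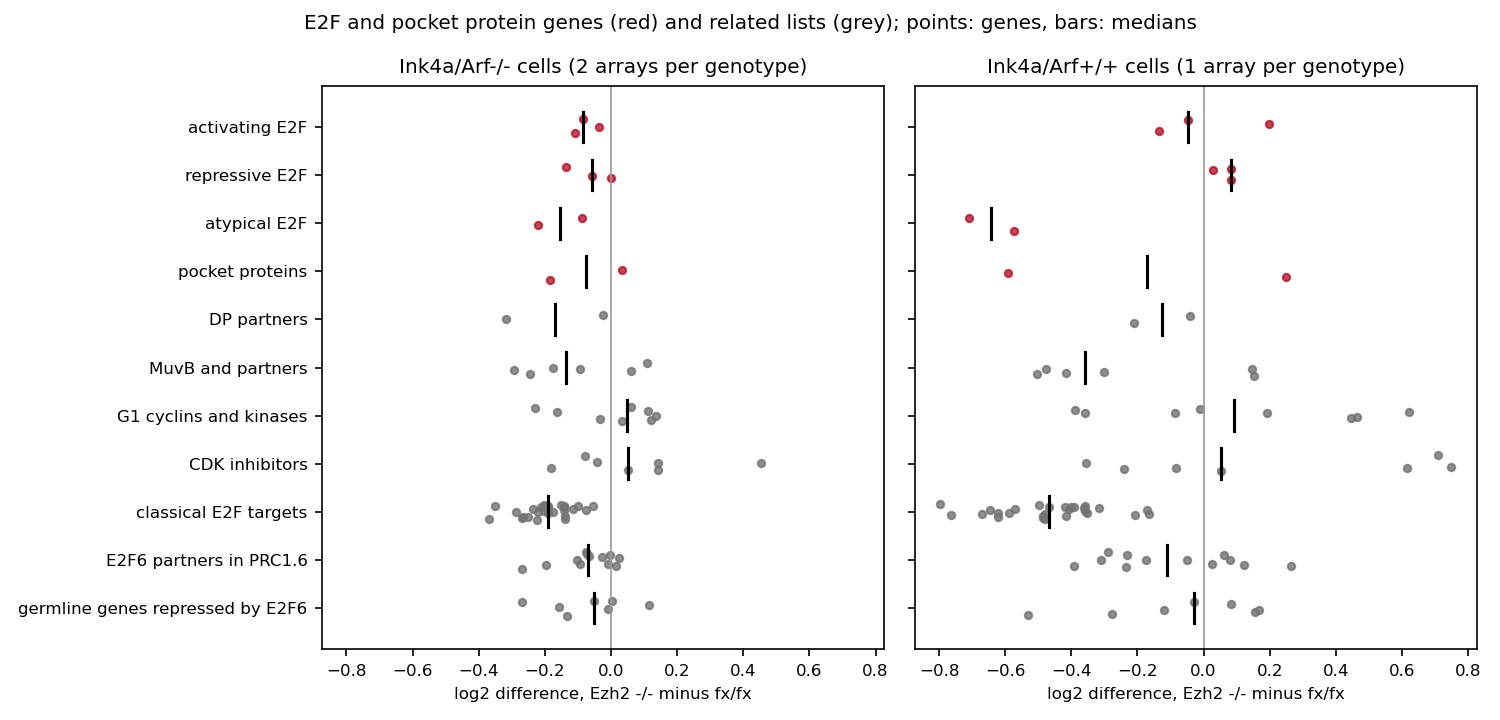
Log2 difference, Ezh2 -/- minus fx/fx (horizontal axis), of every gene of each list other than Ezh2 (points; red for the E2F and pocket protein classes, grey for pathway lists) with the list median (bar); left Ink4a/Arf-/- cells, right Ink4a/Arf+/+ cells. The atypical factors, with a median of -0.64 in Ink4a/Arf+/+ cells, lie in the range of the classical E2F targets, whose median without Ezh2 is -0.47, while the median of the repressive factors is 0.081.

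Genes tied to E2f6 were looked at apart. The 12 partners of E2f6 in the PRC1.6 complex, a Polycomb complex that silences germline genes, had medians of -0.069 in Ink4a/Arf-/- and -0.11 in Ink4a/Arf+/+ cells. L3mbtl2 differed by -0.27 and -0.24, Hdac2 by -0.20 and -0.23, Wdr5 by -0.10 and -0.29, and Cbx3 by -0.071 and -0.39. In Ink4a/Arf-/- cells 10 of the 12 had negative values, beside 60.9% of all probe sets, and in Ink4a/Arf+/+ cells 7, beside 48.2%. The other 5 there were Max, Ring1, Rnf2, Rybp and Yaf2, with values from 0.024 for Ring1 to 0.26 for Yaf2. Of 7 germline genes known to be repressed through E2f6, 5 had negative values in Ink4a/Arf-/- and 4 in Ink4a/Arf+/+ cells, near the 60.9% and 48.2% of all probe sets, with medians of -0.051 and -0.028. Ddx4, the germ cell helicase, differed by -0.27 and 0.17, Tuba3b by -0.13 and -0.53, Mael by -0.051 and -0.28 and Slc25a31 by 0.12 and 0.082. The germline genes ranked low, with a median at the 8.87th percentile of an array.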

How the data were processed

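Transcript levels of fibroblasts were measured on Affymetrix whole-transcript arrays from 150 ng of total RNA, per the labels' protocols. The authors deposited 2 tables of log2 levels per probe set, 1 per Ink4a/Arf background, together with log2 fold changes and p-values. Normalization and the authors' model were not given in the sources used here; the submitters' processing notes name limma, with no version. The series matrix holds the same log2 levels. Grouping followed the titles. The p-values deposited for Ink4a/Arf-/- served as an alternative, and those of the Ink4a/Arf+/+ table, from 1 array per genotype, were not used.

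Limma 3.58.1 (R 4.3.3) was fitted to all 6 arrays with 1 mean per group, so only the Ink4a/Arf-/- arrays inform the spread. P-values were two-sided and Benjamini-Hochberg adjusted over 23346 probe sets, with a threshold of 0.05. Differences are Ezh2 -/- minus fx/fx within a table. A fold of 1.5 was counted in Ink4a/Arf+/+ cells. The fits were tested on simulated data, where recovery of changed probe sets was required only at a fold larger than any member showed. The members and lists were chosen with earlier results of these data known. Named are all members, Ezh2 and Cdkn2a, up to 4 genes per pathway list with the largest averaged difference, any gene behind a count of 5 or fewer, and the 5 genes most like the member with the largest difference. Cdc6, Ccne1, Cdk2, Cdk4, Lin37, Lin52 and the fibroblast markers Pdgfra, Pdgfrb, S100a4 and Thy1 were added after their values were seen. Alternatives covered a variance trend, a filter on dim probe sets, quantile normalization, other probe sets, a replicate block and each replicate left out. Ezh2 was taken out of the list of E2F targets after the values were seen. The number of arrays limits the precision.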

Additional observations from a re-analysis of the deposited data

Results flagged for a closer look

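Of the genes on the lists of cell type markers, the muscle filament gene Des differed between the backgrounds. Its Ezh2 difference was 0.15 in Ink4a/Arf-/- cells and -1.75 in Ink4a/Arf+/+ cells, so that the difference between backgrounds, Ink4a/Arf+/+ minus Ink4a/Arf-/-, was -1.89 (limma, Benjamini-Hochberg adjusted p = 0.0235). It rests on 1 Ink4a/Arf+/+ array per genotype, and its part in the values of the E2F genes was not tested.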

How the results depend on the processing

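No member was called over all probe sets under any alternative run, for Ezh2 loss in Ink4a/Arf-/- cells or for the difference between backgrounds. The lowest adjusted limma p was 0.0634, for the difference of E2f7 with a variance trend. The values of the series matrix were the same. Same-numbered replicates did not deviate together (r = 0.026), which cannot show whether the samples were paired, since variation of single arrays could hide it. With the replicate number as a block E2f8 kept -0.22 (limma, adjusted p = 0.711) and 1 member stayed below an unadjusted p of 0.05.

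Members lower at an unadjusted p below 0.05 in Ink4a/Arf-/- cells numbered 1 as reported, 3 with a variance trend, 2 without the dimmest 30% of probe sets, 0 with the authors' deposited p-values, and 0 to 2 when 1 replicate was left out. For the difference between backgrounds, leaving out 1 replicate moved E2f7 between -0.55 and -0.42 and E2f8 between -0.55 and -0.43. Rbl1 moved between -0.48 and -0.33, and E2f2, with the opposite sign, between 0.20 and 0.37. The 2 members at least 1.5-fold lower in Ink4a/Arf+/+ cells became 1 with quantile normalization and 1 with the median over the probe sets, where Rbl1 came to -0.38. With that median the pocket proteins came to -0.0086 in Ink4a/Arf-/- and -0.067 in Ink4a/Arf+/+ cells, the difference of E2f3 between backgrounds turned to 0.070, and E2f3 in Ink4a/Arf+/+ cells, with the activating median, turned to 0.019. When 1 replicate was left out, the sign turned for small values: E2f1 ranged from -0.11 to 0.034 and E2f5 from -0.066 to 0.068 in Ink4a/Arf-/- cells, and between backgrounds E2f1 ranged from -0.082 to 0.058 and E2f3 from -0.10 to 0.054. The cause of these shifts was not tested. With 1 array left out the lone sample is assumed to vary like the others. Over all probe sets, the 0 called in Ink4a/Arf-/- cells became 48 with a variance trend, 4 without the dimmest 30%, and 0 to 13 when 1 replicate was left out; the 95 called between backgrounds became 627, 355, 268 with quantile normalization, and 44 to 245 when 1 replicate was left out. The 1617 probe sets below an unadjusted p of 0.05 in Ink4a/Arf-/- cells became 623 to 3793 when 1 replicate was left out and 972 with the authors' deposited p-values, and the 2605 between backgrounds became 1454 to 4880.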
